A study of Homo sapiens with 6 samples.

Results

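The miRNAs described here are 6 that are best known from liver, gut or muscle: hsa-miR-122-5p, hsa-miR-192-5p, hsa-miR-194-5p, hsa-miR-1-3p, hsa-miR-133a-3p and hsa-miR-206. They were chosen by name, with no threshold on their measured values, and all 6 were among the 832 miRNAs of the deposited table. They were read in small RNA libraries of extracellular vesicles (EVs), the membrane particles that cells release into their medium. The EVs came from MDA-MB-231, a human triple-negative breast cancer line, either with WT genotype (231 EV, n = 3) or with ACO1 knockdown (231/ACO1 KD EV, n = 3). Both kinds of cell were grown in medium with fetal bovine serum, and EVs were pelleted by ultracentrifugation from EV-free medium. ACO1 encodes a cytosolic aconitase that also acts as an iron-regulated RNA-binding protein, and the comparison asks how the miRNA content of EVs differs when it is depleted. The sample labels name neither the knockdown method nor whether the line is 1 clone, and a small RNA library does not measure ACO1 mRNA. The libraries hold no liver, gut or muscle sample, so the restriction of the 6 miRNAs to those tissues is background and was not examined.

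A mature miRNA guides an Argonaute protein to messenger RNAs, mainly through its seed, bases 2 to 8 from the 5′ end. miRNAs with the same seed therefore form a family with overlapping targets. miR-122 is the dominant miRNA of hepatocytes, where it is known for its role in lipid metabolism and for binding hepatitis C virus RNA. miR-192 and miR-194 have neighbouring genes, are enriched in intestinal epithelium, liver and kidney, and are known as targets of HNF factors. miR-1, miR-133a and miR-206 are the classic myomiRs, made under factors such as SRF, MEF2 and MyoD. miR-1 and miR-133a are made in heart and skeletal muscle, and miR-206 mainly in skeletal muscle.

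The mature sequences are shown because the seed defines each family and because close relatives differ by only a few bases, which bears on how reads are assigned. They are from RefSeq on GRCh38.p14, written 5′ to 3′ with the seed in capitals, and all 6 miRNAs matched an entry. The first stood alone in its seed.
hsa-miR-122-5p: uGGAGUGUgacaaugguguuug
The gut pair has unrelated seeds, and hsa-miR-215-5p, the relative encoded beside the other hsa-miR-194 gene, shares the seed of hsa-miR-192-5p.
hsa-miR-192-5p: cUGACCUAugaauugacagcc
hsa-miR-215-5p: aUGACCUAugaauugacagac
hsa-miR-194-5p: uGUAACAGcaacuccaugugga
The muscle miRNAs hold 2 seeds, 1 shared by hsa-miR-1-3p and hsa-miR-206 and 1 of hsa-miR-133a-3p.
hsa-miR-1-3p: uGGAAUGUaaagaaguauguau
hsa-miR-206: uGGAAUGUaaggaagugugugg
hsa-miR-133a-3p: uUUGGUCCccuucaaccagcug

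Counted from 1 at the 5′ end, hsa-miR-192-5p and hsa-miR-215-5p differed at 2 of 21 positions, C1A and C20A. hsa-miR-1-3p and hsa-miR-206 differed at 4 of 22 positions, A11G, A17G, A21G and U22G. In both pairs, the first letter is the base of the miRNA named first. hsa-miR-133b differs from hsa-miR-133a-3p by the last base alone (G22A) and was not analysed here, so reads of the pair cannot be told apart from these data if they were assigned to one name. Among the miRNAs of the table, the seed of hsa-miR-192-5p was shared by hsa-miR-215-5p alone, and that of hsa-miR-1-3p by hsa-miR-206 and hsa-miR-613. hsa-miR-122-5p, hsa-miR-194-5p and hsa-miR-133a-3p had no seed relative there. These counts rest on the 715 of 782 miRBase names for which a RefSeq sequence was found.

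The genes lie in clusters that tie the gut and the muscle miRNAs together (GRCh38, GENCODE release 29). MIR122 is at chr18:58451074-58451158 on the plus strand, in an exon of the lincRNA MIR122HG. MIR192 (chr11:64891137-64891246) and MIR194-2 (chr11:64891355-64891439) lie 108 bases apart on the minus strand, both in exonic sequence of MIR194-2HG. MIR215 (chr1:220117853-220117962) and MIR194-1 (chr1:220118157-220118241) lie 194 bases apart on the minus strand, opposite to an intron of the protein-coding gene IARS2. MIR1-1 (chr20:62554306-62554376) is intronic in MIR1-1HG, and MIR133A2 (chr20:62564912-62565013) follows 10535 bases downstream on the same strand, in an exon of 1 of the 2 transcripts of that host. MIR133A1 (chr18:21825698-21825785) and MIR1-2 (chr18:21829004-21829088) lie 3218 bases apart within MIR133A1HG, antisense to an intron of MIB1. MIR206 is at chr6:52144349-52144434 on the plus strand, 4488 bases from MIR133B and in no annotated host gene. hsa-miR-194-5p, hsa-miR-1-3p and hsa-miR-133a-3p are each made by 2 of these genes with the same mature sequence, so a read does not show which gene it came from.

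Total counts were 224948 to 230562 in 231 EV, and 67873 to 175924 with ACO1 knockdown, the lowest being 231/ACO1 KD EV replicate 2. The deposited TPM equals a miRNA's share of its library total, scaled to the same sum in every library and without a length term, since a miRNA gives 1 read whatever its length. A single count was worth 4.34 to 4.45 TPM in 231 EV, and in the knockdown libraries 5.68 TPM (replicate 1), 14.7 TPM (replicate 2) and 6.36 TPM (replicate 3). A count of 0 allows up to 3 counts, or 13.0 to 13.3 TPM in 231 EV and 17.1, 44.2 and 19.1 TPM with ACO1 knockdown. Libraries are given below in the order of their replicate numbers. Intervals on single libraries are 95% Wilson intervals and, like these limits, cover counting error only. The sample labels do not say that replicates came from separate cultures, so p-values measure the spread between these libraries, which may be technical. The levels were also set beside miRNAs known for the line, which does not by itself establish its identity. Of 6 that are known as high in MDA-MB-231, 5 were among the 13 most abundant miRNAs, led by hsa-miR-21-5p (rank 1), hsa-miR-125b-5p (rank 3) and hsa-miR-29a-3p (rank 5), and hsa-miR-222-3p was at rank 61. Of 6 epithelial miRNAs known as low in the line, the most abundant were hsa-miR-205-5p (rank 112), hsa-miR-200a-3p (rank 156) and hsa-miR-141-3p (rank 164).

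The liver and gut miRNAs were well detected in every library, whereas the muscle miRNAs were at the edge of detection. By mean TPM over the 6 libraries, hsa-miR-192-5p was at rank 57, hsa-miR-122-5p at rank 66 and hsa-miR-194-5p at rank 103 of the 832 miRNAs. hsa-miR-1-3p was at rank 237, hsa-miR-133a-3p at rank 356 and hsa-miR-206 at rank 544. These ranks pool the 2 groups, and the places beside the miRNAs known for the line differed between them. hsa-miR-192-5p was below hsa-miR-222-3p in all 3 libraries of 231 EV, with means of 1645 and 1779 TPM, and above it in all 3 with ACO1 knockdown, with means of 1924 and 1539 TPM. hsa-miR-194-5p was below hsa-miR-205-5p in every library of 231 EV and in 231/ACO1 KD EV replicate 3, and above it in the other 2 knockdown libraries. The 6 together made up 0.317%, 0.336% and 0.336% of all counts in the libraries of 231 EV, and 0.464%, 0.395% and 0.339% with ACO1 knockdown. The share was thus highest in the first knockdown library, with an interval of 0.433% to 0.497%. In the third it was close to the control libraries, with an interval of 0.312% to 0.369%.

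**Figure D1:**
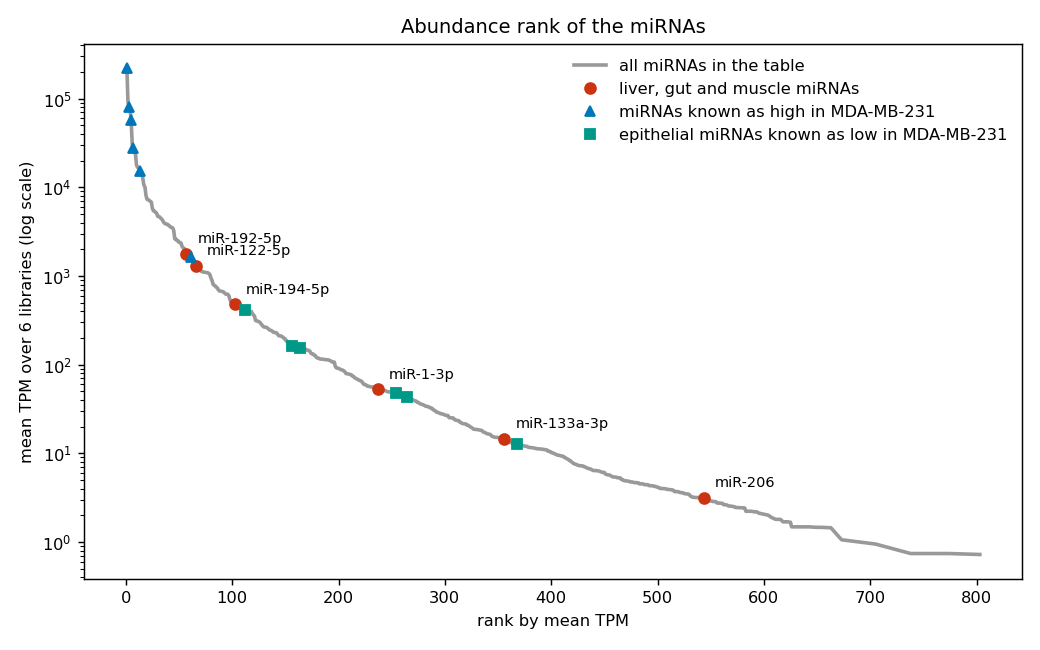
Mean TPM over the 6 libraries (vertical axis, log scale) against rank among the miRNAs of the table (horizontal axis), with the grey line for all miRNAs, circles for the 6 liver, gut and muscle miRNAs, triangles for those known as high in MDA-MB-231 and squares for epithelial miRNAs known as low in it. The ranks pool both groups, and in them hsa-miR-192-5p (rank 57) and hsa-miR-122-5p (rank 66) stand beside the lowest triangle, hsa-miR-222-3p (rank 61), although in 231 EV alone hsa-miR-222-3p is the highest of these 3, while hsa-miR-206 (rank 544) stands far down the slope.

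The order of the levels held in each library for the upper part of the list. hsa-miR-192-5p exceeded hsa-miR-122-5p in 6 of 6 libraries by a mean of 1.39-fold. hsa-miR-122-5p exceeded hsa-miR-194-5p in 6 of 6 by 2.70-fold. hsa-miR-194-5p exceeded hsa-miR-1-3p in 6 of 6 by 10.5-fold. Each of these 3 steps gave p = 0.03125 in a two-sided exact sign-flip permutation test, the smallest that 6 libraries allow, and 0.0521 after adjustment over the 5 neighbouring pairs, so none passed 0.05 after adjustment. hsa-miR-1-3p exceeded hsa-miR-133a-3p in 5 of 6 libraries by 3.55-fold, and hsa-miR-133a-3p exceeded hsa-miR-206 in 5 of 6 by 2.58-fold (exact permutation p = 0.0625 for each, and 0.0625 after adjustment). These folds are geometric means of count ratios with 0.5 added to each count, so those of the lowest pairs depend on that addition. The pairs were set in the order of their mean levels in these same libraries, which pool both groups. The direction of each step is thus a description, and the p-values are no separate support for it.

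**Figure D2:**
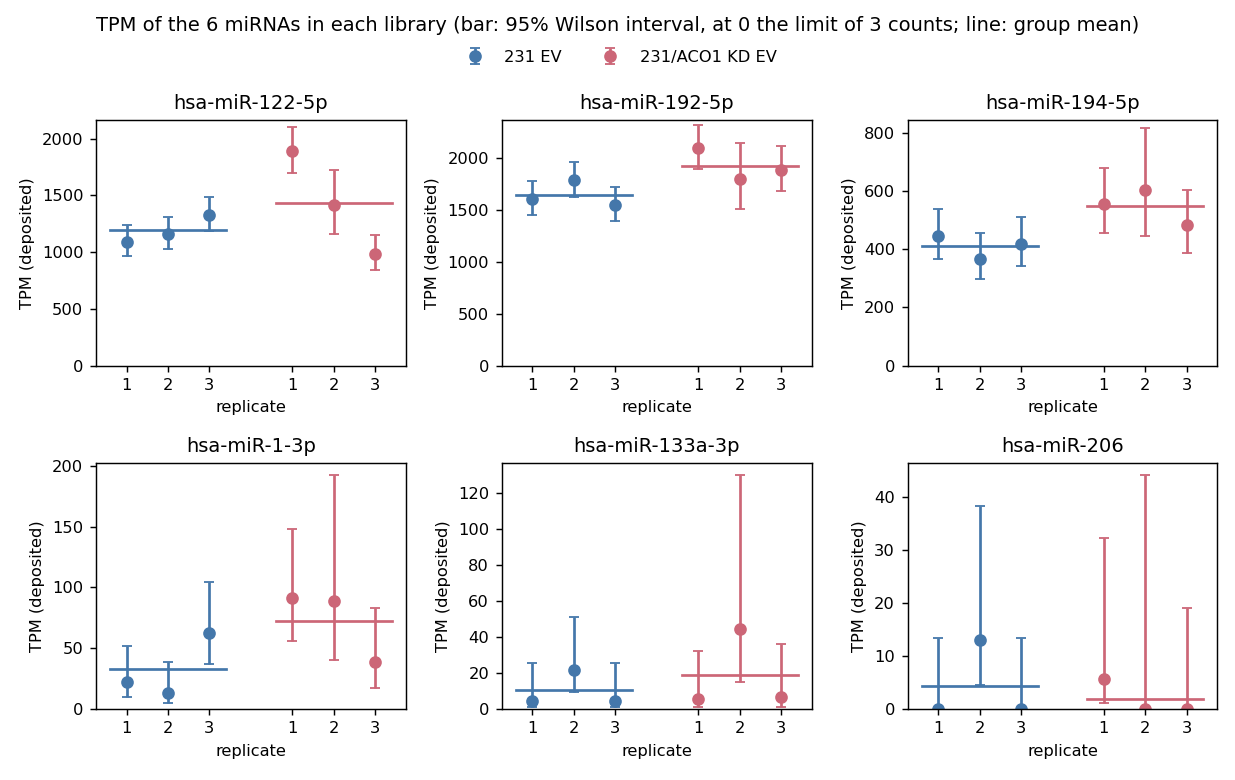
Deposited TPM (vertical axes, a separate scale for each miRNA) of the 6 miRNAs in 231 EV (blue) and 231/ACO1 KD EV (red) replicates 1, 2 and 3, with bars for 95% Wilson intervals of counting error (up to the limit of 3 counts where the count is 0) and horizontal lines for the group means. The groups do not overlap for hsa-miR-192-5p and hsa-miR-194-5p, overlap for the others, and in the lower row the bars are as long as the values or longer.

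None of the 5 miRNAs that could be tested passed the test for a change between 231 EV and 231/ACO1 KD EV. The test was the edgeR quasi-likelihood test with TMM scaling over the 517 miRNAs counted in at least 3 of the 6 libraries, with Benjamini-Hochberg adjustment, and it called 44 of them at an adjusted p under 0.05, which is 8.51% (31 lower and 13 higher with ACO1 knockdown). Of the 5, 0 had an unadjusted p under 0.05 with edgeR or with DESeq2, and 1 (hsa-miR-1-3p) had with limma on log2(TPM + 1). Neither DESeq2 nor limma called any of them, though DESeq2 gave no adjusted p for hsa-miR-1-3p and hsa-miR-133a-3p. hsa-miR-206 was counted in too few libraries to be tested. TMM is a scaling that sets aside the most extreme miRNAs before it compares libraries. Its factors were 0.840 to 0.915 in 231 EV, and 1.09 to 1.20 with ACO1 knockdown, so values per library total and values after TMM differ systematically between the groups. The median log2 fold change of all tested miRNAs was -0.03 with TMM and 0.32 with library totals, and changes below are read against it. hsa-miR-21-5p, the most abundant miRNA, was at 299864 ± 13811 TPM in 231 EV and 141141 ± 37525 TPM in 231/ACO1 KD EV (SD, n = 3), and its part in that shift was not tested.

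hsa-miR-122-5p, the liver miRNA, varied more between the knockdown libraries than between the groups. It was counted 246, 267 and 298 times in 231 EV, and 332, 96 and 155 times with ACO1 knockdown. In TPM these were 1094, 1158 and 1324, and 1887, 1414 and 985. The first knockdown library was thus the highest of the 6 and the third the lowest, with intervals of 1695 to 2101 TPM and 842 to 1153 TPM that do not meet, so this spread exceeded counting error. The means were 1192 ± 119 TPM in 231 EV and 1429 ± 451 TPM in 231/ACO1 KD EV (SD, n = 3). The log2 fold change after TMM was -0.10 (SE 0.19, 95% interval -0.48 to 0.28) with an adjusted p of 0.864 by the edgeR quasi-likelihood test after Benjamini-Hochberg adjustment. The TMM-scaled values gave p = 0.6 in an exact permutation test, where 3 against 3 libraries cannot go below 0.1. With library totals, the estimate was 0.26 (adjusted p = 0.436, edgeR quasi-likelihood test), below the median of all tested miRNAs under that scaling. Both intervals include changes of either sign, so the test does not show that the level stayed the same.

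hsa-miR-192-5p, the more abundant gut miRNA, was the highest of the 6 and stayed within a narrower range than hsa-miR-122-5p. 231 EV held counts of 361, 411 and 348, against 368, 122 and 296 with ACO1 knockdown, which is 1605, 1783 and 1547 TPM against 2092, 1797 and 1881 TPM. Every knockdown library was above every control library, although the closest values, 1783 and 1797 TPM, were nearly equal. The means were 1645 ± 123 and 1924 ± 152 TPM (SD, n = 3). In CPM after TMM (counts scaled like TPM but to the TMM-adjusted library size), the values were 1754, 1986 and 1841 against 1887, 1501 and 1723, and the groups overlapped. The log2 fold change was -0.12 (SE 0.18, 95% interval -0.47 to 0.23, adjusted p = 0.799, edgeR quasi-likelihood test, Benjamini-Hochberg), and 0.23 with library totals (adjusted p = 0.463, same test). The direction thus turned with the scaling and neither value was called.

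hsa-miR-194-5p, which has a gene beside that of hsa-miR-192-5p, was lower than hsa-miR-192-5p in every library. Its highest TPM was in 231/ACO1 KD EV replicate 2. 231 EV held counts of 100, 85 and 94, against 98, 41 and 76 with ACO1 knockdown, which is 445, 369 and 418 TPM against 557, 604 and 483 TPM. The groups did not overlap in TPM, with means of 410 ± 38.5 and 548 ± 61.0 TPM (SD, n = 3). After TMM they overlapped, with means of 465 ± 47.0 and 483 ± 35.3 CPM. The log2 fold change was 0.05 (SE 0.25, 95% interval -0.44 to 0.54, adjusted p = 0.937, edgeR quasi-likelihood test, Benjamini-Hochberg), and 0.41 with library totals (adjusted p = 0.320, same test).

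Of the 5 tested miRNAs, 2 (hsa-miR-192-5p and hsa-miR-194-5p) were thus higher in every knockdown library in TPM, each with an exact permutation p of 0.1, the smallest possible. Among all tested miRNAs, 22.6% had groups that did not overlap in TPM with the higher values in 231/ACO1 KD EV. After TMM, 0 of the 5 had groups that did not overlap in either direction, against 24.4% of all tested miRNAs.

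The muscle miRNAs were too sparse for a precise comparison. hsa-miR-1-3p, known for driving muscle differentiation, was counted 5, 3 and 14 times in 231 EV, and 16, 6 and 6 times with ACO1 knockdown. In TPM these were 22.2, 13.0 and 62.2 against 90.9, 88.4 and 38.1, so the groups overlapped through 231 EV replicate 3. The mean was 32.5 ± 26.2 TPM in 231 EV and 72.5 ± 29.8 TPM in 231/ACO1 KD EV (SD, n = 3). The log2 fold change was 0.75 (SE 0.57, 95% interval -0.36 to 1.86, adjusted p = 0.571, edgeR quasi-likelihood test, Benjamini-Hochberg), and 1.66 without 231 EV replicate 3. It was above 0 in all 16 alternative settings and called in none. Summed over libraries, 22 of 680516 counts in 231 EV and 28 of 401119 in 231/ACO1 KD EV were of hsa-miR-1-3p, a ratio of 2.16 with an exact 95% interval of 1.19 to 3.96. That interval covers counting error only, whereas the edgeR interval also covers the spread between libraries and includes 0.

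hsa-miR-133a-3p, the cluster partner of hsa-miR-1, was counted in every library 1, 5 and 1 times in 231 EV, and 1, 3 and 1 times with ACO1 knockdown. In each group, replicate 2 was the highest, at 21.7 and 44.2 TPM, while the other libraries were at 4.44 to 6.36 TPM, the level of 1 count. The log2 fold change was 0.04 with an SE of 1.21 and a 95% interval of -2.32 to 2.40 (adjusted p = 0.991, edgeR quasi-likelihood test, Benjamini-Hochberg). The interval is so wide that only a large change in either direction could have been seen with these counts. hsa-miR-206, the skeletal muscle member of the miR-1 seed family, had 3 counts in 231 EV replicate 2, 1 count in 231/ACO1 KD EV replicate 1 and 0 in the other 4 libraries. With 4 counts in all, no fold is given, and by the limit of 3 counts its 0 counts allow up to 13.3 TPM in 231 EV and 44.2 TPM in the shallowest knockdown library. hsa-miR-613, a further relative with the same seed, had 2 counts in 1 knockdown library.

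**Figure D3:**
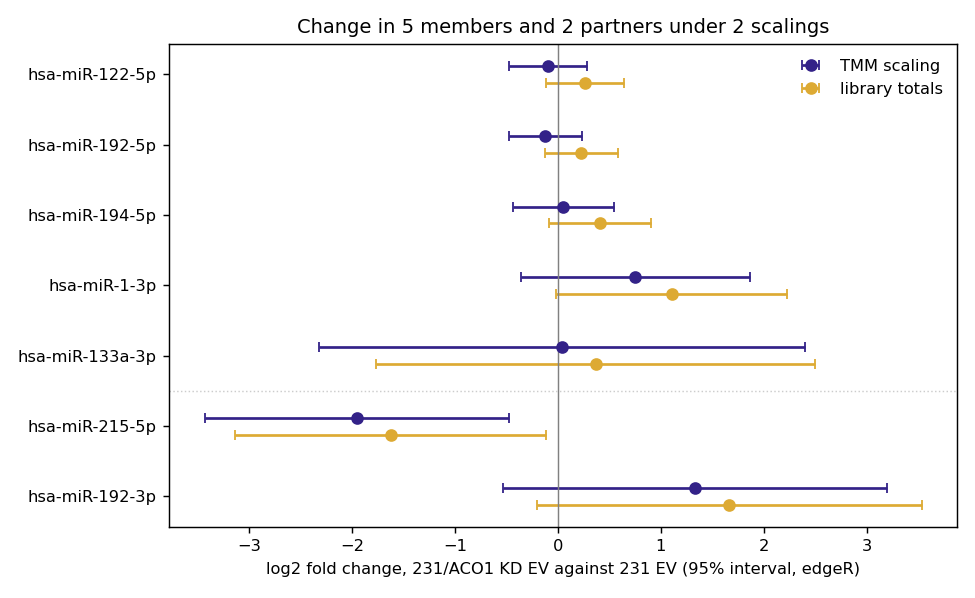
log2 fold change of 231/ACO1 KD EV against 231 EV (horizontal axis) with 95% intervals from edgeR for the 5 tested miRNAs and, below the dotted line, hsa-miR-215-5p and hsa-miR-192-3p, with TMM scaling (purple) and with library totals (yellow). The intervals of the 5 reach across 0 under both scalings, and that of hsa-miR-215-5p, from -3.42 to -0.47 with TMM, does not.

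The other arms and cluster partners were low. Of 8 such miRNAs, 4 were in the table and 2 were tested. Of these 2, 0 were called with edgeR or limma, and 1 had an unadjusted p under 0.05 with edgeR. DESeq2 gave no adjusted p for them. The summed level of the 4 was 44.4 to 80.0 TPM in 231 EV, and 22.7 to 103 TPM with ACO1 knockdown. hsa-miR-215-3p, hsa-miR-1-5p, hsa-miR-133a-5p and hsa-miR-133b were not analysed here. hsa-miR-215-5p, the seed relative of hsa-miR-192-5p, was counted 14, 11 and 8 times in 231 EV, and 2, 2 and 2 times with ACO1 knockdown, which is 62.2, 47.7 and 35.6 TPM against 11.4, 29.5 and 12.7 TPM. The knockdown libraries were all below the control libraries, also in CPM after TMM. Groups that did not overlap after TMM, in either direction, were found for 24.4% of all tested miRNAs. The log2 fold change was -1.95 (SE 0.75, 95% interval -3.42 to -0.47), with an unadjusted p of 0.0097 and an adjusted p of 0.0814 by the edgeR quasi-likelihood test after Benjamini-Hochberg adjustment, which misses the threshold. Summed over libraries it had 33 counts in 231 EV, and 6 with ACO1 knockdown, a ratio of 0.308 (exact 95% interval 0.106 to 0.746, counting error only). Over the 16 alternatives its estimate lay between -2.26 and -1.10 and was called in 0, with adjusted p from 0.0669 to 0.285 by the test of each alternative (edgeR, limma or DESeq2, which gave none). hsa-miR-192-3p, the other arm of the same precursor, was counted 2, 2 and 2 times in 231 EV, and 1, 4 and 6 times with ACO1 knockdown (log2 fold change 1.33, SE 0.95, adjusted p = 0.531, edgeR quasi-likelihood test). hsa-miR-122-3p and hsa-miR-194-3p had 2 counts each over all libraries.

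Ratios inside a library do not depend on the scaling, so they were compared as well. hsa-miR-192-5p against hsa-miR-194-5p gave 3.61, 4.84 and 3.70 in 231 EV, and 3.76, 2.98 and 3.89 with ACO1 knockdown (log2 difference -0.19, exact permutation p = 0.6). This ratio lay between 2.98 and 4.84 in all 6 libraries, and the groups overlapped. hsa-miR-122-5p against hsa-miR-192-5p gave 0.681, 0.650 and 0.856 in 231 EV, and 0.902, 0.787 and 0.524 with ACO1 knockdown (exact permutation p = 1). The knockdown libraries held both the highest and the lowest of these ratios. hsa-miR-122-5p against hsa-miR-194-5p ranged from 2.46 to 3.17 in 231 EV and from 2.04 to 3.39 in 231/ACO1 KD EV (exact permutation p = 0.6). hsa-miR-192-5p against its seed relative hsa-miR-215-5p gave 25.8, 37.4 and 43.5 in 231 EV, and 184, 61 and 148 with ACO1 knockdown. These groups did not overlap, with a log2 difference of 1.52 and an exact permutation p of 0.1, the smallest possible, or 0.5 after adjustment over 5 ratios. Each knockdown value rests on 2 counts of hsa-miR-215-5p. The arms of the precursor, hsa-miR-192-5p against hsa-miR-192-3p, gave 174 to 205.5 in 231 EV, and 30.5 to 368 with ACO1 knockdown (exact permutation p = 0.4).

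The miRNAs whose profile over the 6 libraries was most like each member were different ones for each of the 3 members compared. Likeness was measured among 480 miRNAs as the root mean square difference of log2(CPM + 1) after TMM, each centred on its own mean, for members with a mean count of at least 10. Nearest to hsa-miR-122-5p were hsa-miR-454-3p (0.130) and hsa-miR-6529-5p (0.135), against an SD of 0.299 for hsa-miR-122-5p itself. Nearest to hsa-miR-192-5p were hsa-miR-29c-3p (0.0473) and hsa-miR-30e-5p (0.0612), against an SD of 0.127. Nearest to hsa-miR-194-5p were hsa-let-7b-5p (0.0465) and hsa-miR-125b-5p (0.0612), against an SD of 0.111. The last is among the miRNAs known as high in MDA-MB-231. These are descriptions over 6 libraries that share their scaling.

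miRNAs of other tissues were set beside the 6 to place their level, using lists of miRNAs known from those tissues. Of 8 further miRNAs of liver, pancreas, heart and muscle, 6 were in the table, with a summed level of 78.1 to 97.8 TPM in 231 EV, and 85.3 to 172 TPM with ACO1 knockdown. The most abundant were the pancreatic miRNAs hsa-miR-216a-5p, hsa-miR-217-5p and hsa-miR-375-3p, at ranks 220, 335 and 347. DESeq2 gave no adjusted p for 4 of the 5 tested, and 0 were called with edgeR, limma or, where adjusted, DESeq2. Of the 5, 0 had an unadjusted p under 0.05 with edgeR, against 1 with library totals (hsa-miR-216a-5p). Their log2 fold changes went both ways, from -1.58 to 1.67, and their median of -0.98 lay between -1.09 and 0.0104 over the alternatives, moving to -0.23 when 231 EV replicate 1 was left out and to -0.49 when 231/ACO1 KD EV replicate 1 was. All 6 brain miRNAs were in the table, at 369 to 529 TPM in sum in 231 EV, and 477 to 692 TPM with ACO1 knockdown. hsa-miR-9-5p (rank 118) led them, followed by hsa-miR-338-3p (rank 257) and hsa-miR-219a-5p (rank 274). DESeq2 gave no adjusted p for 4 of the 5 tested, and 0 were called with the same tools. Of the 5, 0 had an unadjusted p under 0.05 with edgeR, against 1 with library totals (hsa-miR-338-3p). Their median log2 fold change of 0.0046 lay between -0.27 and 0.34 over the alternatives. The 6 liver, gut and muscle miRNAs summed to 3170 to 3357 TPM in 231 EV, and 3394 to 4638 TPM with ACO1 knockdown, above both lists in every library.

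miRNAs of blood cells and endothelium were more abundant than the 6. Their 9 listed miRNAs summed to 17764 to 20271 TPM in 231 EV, and 27460 to 31854 TPM with ACO1 knockdown, led by the endothelial hsa-miR-126-3p (rank 17), the leukocyte miRNA hsa-miR-142-3p (rank 29) and the myeloid hsa-miR-223-3p (rank 44). All 9 were tested and 5 were called, against 8.51% of all tested miRNAs. The red cell miRNAs hsa-miR-451a (log2 fold change -0.94) and hsa-miR-486-5p (-1.08) were lower with ACO1 knockdown, and hsa-miR-223-3p (0.51), hsa-miR-150-5p (0.72) and hsa-miR-126-3p (0.52) were higher. The rest of the list was not called, namely hsa-miR-144-3p (-0.33), hsa-miR-144-5p (-0.48), hsa-miR-142-3p (0.10) and hsa-miR-142-5p (0.38). Without 231 EV replicate 1, 2 or 3, 0 of the list were called higher, while 2, 2 and 1 were called lower. Calls over all tested miRNAs also fell in these settings, from 44 to 20, 30 and 19. Without 231/ACO1 KD EV replicate 1, 2 or 3, the list had 2, 3 and 4 called higher, and 2, 2 and 3 called lower. With library totals 2 were lower and 5 were higher. Of the 6 miRNAs known as high in MDA-MB-231, 4 were lower with ACO1 knockdown, namely hsa-miR-21-5p (-1.44), hsa-miR-221-3p (-0.87), hsa-miR-222-3p (-0.56) and hsa-miR-100-5p (-0.89), and 0 were higher. With library totals 3 were lower and 2 were higher, and hsa-miR-222-3p was not called. Of the 6 epithelial miRNAs, 1 was called, hsa-miR-205-5p (-0.93), and 0 were with library totals or without 231 EV replicate 1, 231 EV replicate 3 or 231/ACO1 KD EV replicate 1. The epithelial miRNAs summed to 858 to 985 TPM in 231 EV, and 619 to 992 TPM with ACO1 knockdown. Members of these last lists were thus called, and 0 of the 5 tested liver, gut and muscle miRNAs were. With 8.51% called among all tested miRNAs, 0 of 5 does not set these apart from the rest. Whether RNA of other cells contributed to any of these levels was not tested.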

How the data were processed

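Small RNA libraries of EVs were analysed for 3 samples of 231 EV and 3 of 231/ACO1 KD EV, grouped by genotype as the sample labels give it. The authors removed adapters and low-quality bases, discarded reads of other RNA classes found in Rfam, assigned the remainder to miRBase entries and predicted additional miRNAs. The submitters' processing notes name StringTie, Bowtie2 and the build hg38. The authors deposited raw counts per miRNA and TPM values for each library, and dividing each count by its library total gave the deposited TPM to within 4.99e-05. The table held 782 miRBase names and 50 predicted miRNAs, and 0 columns were left unused. Reads without molecular identifiers were counted, so copies made by amplification cannot be told apart. Close relatives may share reads because their sequences are alike.

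Counts were tested with edgeR 4.0.16 in R 4.3.3 (quasi-likelihood test, TMM scaling, no covariates, Benjamini-Hochberg adjustment) for the 517 miRNAs detected in 3 or more of the 6 libraries. The study's methods use DESeq2, which was run as an alternative (version 1.42.0) with limma 3.58.1 on log2(TPM + 1) and log2(TPM + 10). edgeR estimated a biological coefficient of variation of 20.8% and shared 1 quasi-dispersion over all miRNAs, so a miRNA that varies more than the others is given a p-value that is too small. Each standard error is the size of the log2 fold change over the root of its F value. Single values were compared by two-sided exact permutation tests of log2(CPM + 1) after TMM or of TPM. Replicates differed by more than counting noise, with a chi-square per degree of freedom of 3.64 to 4.41 between libraries of 231 EV. With ACO1 knockdown it was 7.21 for replicates 1 and 2, 22.6 for 1 and 3, and 17.3 for 2 and 3. No library was left out of the main test, and each was a separate sample in it.

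The named miRNAs are the 6, the 2 profiles most like each with a mean count of at least 10, the 3 most abundant of each list, and seed relatives; other list members were named after their values were seen. The members, lists and tests were chosen with earlier results of these data known. The other alternatives were library totals, TMM without the 10 most abundant miRNAs, median centring, no filter, a mean TPM of at least 10, robust estimation, a replicate block and each library left out in turn. Positions are from GENCODE release 29, counted from 1. Sequences are from RefSeq.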

Additional observations from a re-analysis of the deposited data

How the results depend on the processing

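None of the 5 tested miRNAs was called in any of the 16 alternatives, among which DESeq2 gave no adjusted p for hsa-miR-1-3p and hsa-miR-133a-3p. The lowest adjusted p by edgeR, limma or DESeq2 was 0.341 for hsa-miR-122-5p, 0.434 for hsa-miR-192-5p, 0.253 for hsa-miR-194-5p, 0.180 for hsa-miR-1-3p and 0.766 for hsa-miR-133a-3p. Directions near 0 were not stable. hsa-miR-122-5p was at 0.26 with library totals and at 0.22 and 0.21 with limma on log2(TPM + 1) and log2(TPM + 10), and hsa-miR-192-5p at 0.23, 0.23 and 0.22. With TMM without the 10 most abundant miRNAs, hsa-miR-194-5p was at -0.0085 and hsa-miR-133a-3p at -0.0273. With 1 library left out, log2 fold changes ranged from -0.39 to 0.11 for hsa-miR-122-5p, from -0.20 to -0.0427 for hsa-miR-192-5p, from -0.0274 to 0.12 for hsa-miR-194-5p, from 0.36 to 1.66 for hsa-miR-1-3p and from -1.004 to 1.14 for hsa-miR-133a-3p. hsa-miR-206 was at -0.96 (SE 1.80) without a filter, with an adjusted p of 0.777 by the edgeR quasi-likelihood test, on 4 counts.

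The number of miRNAs called, 44 with 31 lower and 13 higher, became 71 (13 lower, 58 higher) with library totals, 75 (16 lower, 59 higher) with limma on log2(TPM + 1) and 76 (16 lower, 60 higher) with log2(TPM + 10). The split of directions thus turned with the scaling. Leaving out 1 library gave 19 to 70 calls, the lowest being 19 without 231 EV replicate 3, then 20 without 231 EV replicate 1, and the highest 70, when 231/ACO1 KD EV replicate 3 was left out. The other settings gave 39 to 52, among them 41 with DESeq2, 51 (30 lower, 21 higher) with median centring and 48 (39 lower, 9 higher) with TMM without the 10 most abundant miRNAs. Samples of the same replicate number correlated in their deviations at 0.113, 0.119 and 0.00200, and those of different numbers at -0.168 to 0.0515. The labels do not say whether the numbers pair the samples, and these small values cannot decide it. With the replicate block, 44 miRNAs were called, and the log2 fold changes were -0.13 for hsa-miR-122-5p, -0.12 for hsa-miR-192-5p, 0.05 for hsa-miR-194-5p, 0.78 for hsa-miR-1-3p and 0.37 for hsa-miR-133a-3p. Depth limits the muscle miRNAs most, since a count of 0 in 231/ACO1 KD EV replicate 2 allows up to 44.2 TPM.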
